A study of Mus musculus with 48 samples.

Results

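The nuclear genes of the mitochondrial respiratory chain and of ATP synthase were followed through 3′-end RNA sequencing of mouse dendritic cells (DC), which sense microbes and start immune responses, and in the bone marrow and spleen cells related to them. Members were taken by gene symbol. Every row whose symbol starts with Ndufa, Ndufb, Ndufc, Ndufs, Ndufv, Uqcr, Cox4 to Cox8 or Atp5 was included, together with Sdha, Sdhb, Sdhc and Sdhd, and the muscle isoform Cox6a2 was left out. This gave 89 of the 21637 genes in the table of stimulated cells, 86 of 13963 in the table of sorted cells and 84 of 11278 in the table of perturbed cells. Of the 89 members, 36 are subunits of complex I, 4 of complex II, 8 of complex III, 18 of complex IV and 15 of ATP synthase (complex V). The other 8 share a prefix but are not subunits of the chain: the assembly factors Ndufaf1 to Ndufaf4, the supercomplex factor Cox7a2l, and Atp5s, Atp5sl and Cox4nb.

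The cultured cells came from bone marrow of C57BL/6J female mice aged 6 to 10 weeks. The labels name the GM-CSF cultures moDC, for monocyte-derived DC, and the Flt3L cultures pDC, for plasmacytoid DC. Each culture was left untreated or was treated with 100 ng/ml LPS or PAM, ligands of Toll-like receptors (TLR) at the cell surface, or with 5 uM CpG A or CpG B, DNA oligonucleotides read by a TLR inside the cell. RNA was taken at 1, 2, 4 and 6 h, and at 1, 4 and 6 h for CpG A, with 1 library for each condition and 16 for each culture. A further 6 libraries came from moDC infected with a hairpin against Cebpb or a control hairpin, and from pDC infected with a hairpin against Irf8 or a control hairpin, or with a vector labelled as overexpressing Cebpb or a GFP control. The last 9 libraries were populations sorted without culture. From bone marrow these were MP (Flk2 low, c-kit high), MDP (Flk2 high, c-kit high), Ly6c- and Ly6c+ monocytes (CD115+, Gr1- or Gr1+), CDP (Flk2 high, c-kit intermediate to low) and preDC (CD11c+ CD11b+ CD45RA-). From spleen they were pDC (mPDCA+), DN DC (CD8- CD4-) and CD8+ DC. The strain label of the sorted samples carries a different number for each sample. Nothing in the labels says that libraries came from separate cultures, so p-values measure only the spread between these libraries.

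As background, complexes I and II take electrons from NADH and succinate and pass them through ubiquinone to complex III, and cytochrome c carries them to complex IV, where oxygen is reduced. Complexes I, III and IV pump protons across the inner mitochondrial membrane, and ATP synthase uses the gradient to make ATP. Most subunits are encoded in the nucleus, and resting DC are known to rely on respiration while LPS-activated DC grown with GM-CSF are known to turn to glycolysis. The 13 subunits encoded by mitochondrial DNA were not analysed here.

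Promoters of the nuclear chain genes are known for binding sites of NRF1, of the ETS factor GABP (also called NRF-2) and of YY1. Windows from 250 bases before to 50 bases after a gene's start were read from RefSeq (GRCm38.p6), and 74 of the 89 members had at least 1 window, 80 windows in all. The letters TGCGCA (NRF1 core) stood in 25% of the member windows and in 7.76% of all 32851 windows, on either strand. CCGGAAG (ETS core) stood in 21.2% of the member windows and 8.86% of all windows, and ATGGCGG (YY1 core) in 16.2% and 4.05%. Matches of different motifs can overlap, and 52.5% of the member windows held at least 1 of them, against 18.1% of all windows. Members called higher in moDC than in pDC and members with no call had like shares, 55.3% (26 of 47 windows) and 57.9% (11 of 19 windows). A match is a description of letters and not a binding site. The windows of the 4 genes on which the results below turn are printed 5′ to 3′ on the strand of the gene, with ETS core letters in capitals. Cox8a and Atp5k had the largest excess in moDC in their complexes, Ndufa4 had the largest deficit, and Cox7a2l was the 1 member whose change with time differed between the cultures by the test. The windows are Cox8a at chr19:7217567-7217866, Atp5k at chr5:108434350-108434649, Ndufa4 at chr6:11907401-11907700 and Cox7a2l at chr17:83514284-83514583, all on the minus strand.
Cox8a: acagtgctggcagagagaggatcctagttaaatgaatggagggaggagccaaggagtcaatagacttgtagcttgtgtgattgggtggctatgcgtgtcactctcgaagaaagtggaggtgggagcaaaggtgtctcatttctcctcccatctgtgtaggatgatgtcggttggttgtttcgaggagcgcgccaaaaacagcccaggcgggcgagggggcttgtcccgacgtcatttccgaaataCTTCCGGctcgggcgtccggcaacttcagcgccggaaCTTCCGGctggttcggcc
Atp5k: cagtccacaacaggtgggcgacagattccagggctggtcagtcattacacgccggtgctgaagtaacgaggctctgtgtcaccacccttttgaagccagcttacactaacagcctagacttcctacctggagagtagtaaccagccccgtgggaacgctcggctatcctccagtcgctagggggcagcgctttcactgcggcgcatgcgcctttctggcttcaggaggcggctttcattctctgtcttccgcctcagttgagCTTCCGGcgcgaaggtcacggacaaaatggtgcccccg
Ndufa4: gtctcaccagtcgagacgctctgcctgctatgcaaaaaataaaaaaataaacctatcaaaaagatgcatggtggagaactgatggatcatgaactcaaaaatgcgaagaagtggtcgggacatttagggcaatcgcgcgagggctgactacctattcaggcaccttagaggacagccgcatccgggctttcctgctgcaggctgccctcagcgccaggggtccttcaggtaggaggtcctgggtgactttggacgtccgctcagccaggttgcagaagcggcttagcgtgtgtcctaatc
Cox7a2l: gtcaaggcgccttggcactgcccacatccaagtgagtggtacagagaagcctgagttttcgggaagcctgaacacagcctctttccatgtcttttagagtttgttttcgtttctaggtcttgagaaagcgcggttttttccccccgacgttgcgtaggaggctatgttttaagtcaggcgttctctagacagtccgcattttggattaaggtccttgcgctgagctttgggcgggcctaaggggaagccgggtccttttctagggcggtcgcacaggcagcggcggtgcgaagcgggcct
The Cox8a window held CTTCCGG, the reverse complement of the ETS core, at 2 places and the Atp5k window at 1. The Ndufa4 and Cox7a2l windows held none of the 3 motifs. Only exact letters were counted, so strings that differ by a letter, such as tgcgcc within gcgcatgcgcc of the Atp5k window, were left out.

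Stimulation libraries held 255062 to 748152 counts (median 397711), and levels below are CPM (counts relative to the library total) with library sizes scaled by TMM, called scaled CPM. Where a gene had a count of 0, its level could still be as high as 4.01 to 11.8 CPM, depending on the library (3 counts of the total, counting error only). Of the 89 members 75 passed the filter on low counts of at least 20 CPM in at least 4 libraries. The other 14 had culture means of at most 11.4 scaled CPM, and among them were the tissue isoforms Ndufa4l2, Cox4i2, Cox6b2, Cox7a1, Cox7b2, Cox8b and Cox8c, with Cox8b at 0 in every stimulation library. The others under the filter were Ndufab1, Ndufs5, Cox7c, Atp5g1, Atp5g2, Atp5s and Cox4nb. Many of these genes have processed pseudogenes, and reads shared with them make single levels uncertain. A bulk library cannot tell fewer cells of a kind from less RNA per cell.

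In scaled CPM, the GM-CSF cultures carried more respiratory chain RNA than the Flt3L cultures. Of the 75 members tested, 52 were higher and 3 lower in moDC than in pDC (edgeR quasi-likelihood test over 32 libraries with the condition as a block, Benjamini-Hochberg adjusted p below 0.05), with 20 not called. Among all 8056 genes tested, 27.2% were called higher and 31.5% lower. The summed level of the members ran from 18857 to 25874 scaled CPM in moDC (median 22903). In pDC it ran from 15020.4 to 17919.7 (median 16132), so in scaled CPM no moDC library reached down into the pDC range. The ratio of the culture means was 1.4, and the scaled sum was higher in moDC in all 16 pairs of libraries with the same ligand and time. By share of raw counts, given below, the cultures overlapped and the pair at 6 h of CpG B was reversed. The differences of single genes were modest: 1 higher and 1 lower member reached 2-fold.

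**Figure D1:**
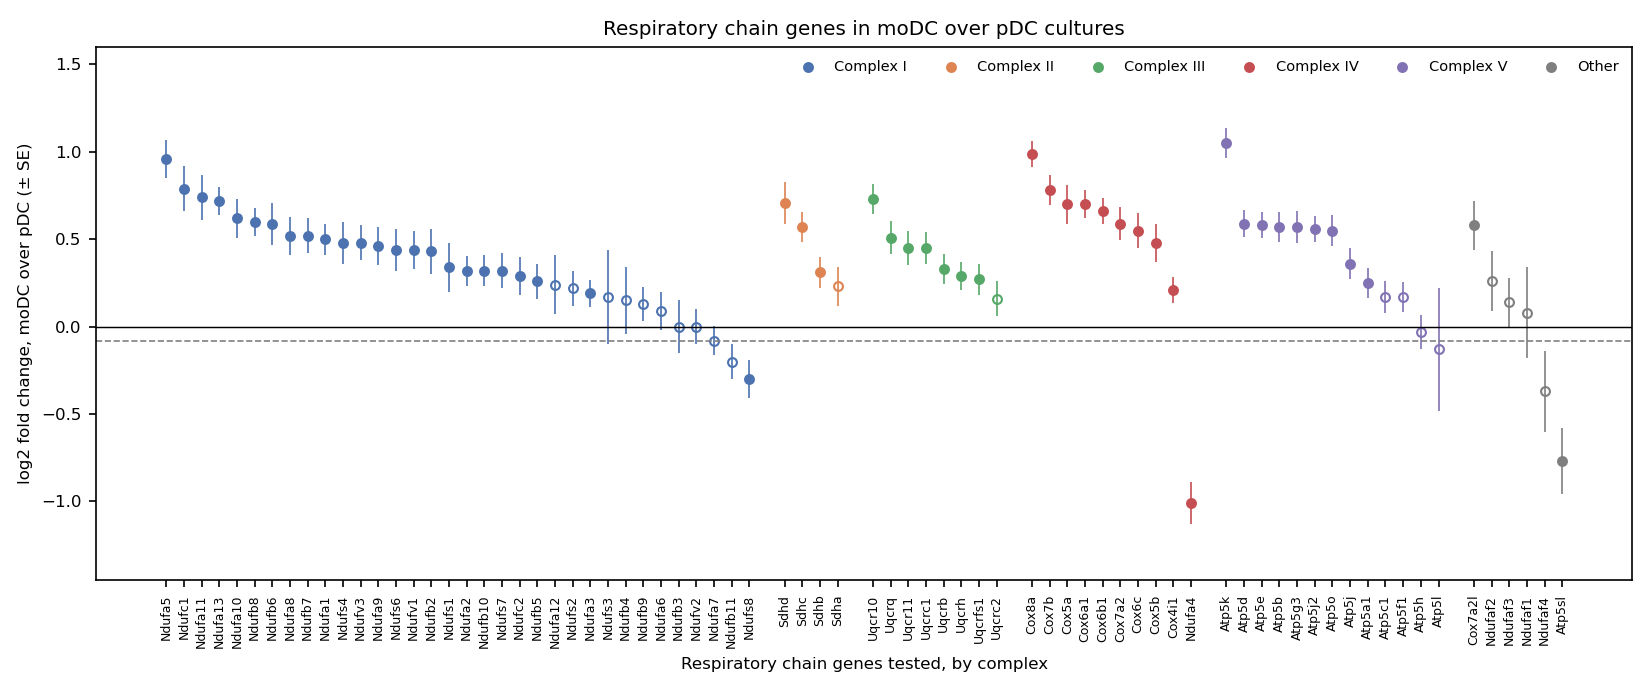
Log2 fold change of each tested member, moDC over pDC, with its standard error (vertical axis), by gene and complex (horizontal axis); filled points passed an adjusted p below 0.05 and the dashed line is the median of all genes tested. Most points lie above 0, Atp5k at 1.05 and Cox8a at 0.99 are highest, and Ndufa4 at -1.01 is lowest.

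In complex I, which oxidises NADH, 23 of 34 tested members were higher in moDC and 1 was lower, with a median log2 fold change of 0.33. Ndufa5, a subunit of the arm that faces the matrix, had 87.8, 122 and 184 scaled CPM (lowest, median and highest) in moDC, against 34.1, 64.2 and 89.9 in pDC. Its log2 fold change was 0.96 ± 0.11 (SE), with an adjusted p of 4.35e-08 in edgeR's test, and the culture ranges met only at their edges. Ndufa13, a subunit also studied as the cell death regulator GRIM-19, had 354, 449 and 551 scaled CPM in moDC, against 222, 274 and 305 in pDC, and every moDC library lay above every pDC library (log2 fold change 0.72 ± 0.08, edgeR adjusted p = 1.32e-08). Among the larger differences were also Ndufc1, an accessory subunit, with a log2 fold change of 0.79 ± 0.13 (edgeR adjusted p = 6.92e-06), and Ndufa11, which takes part in the assembly of the complex, with 0.74 ± 0.13 (edgeR adjusted p = 2.09e-05). The exception was Ndufs8, an iron-sulphur subunit of the electron path, with 80.4, 139 and 200.2 scaled CPM in moDC and 133, 166 and 220.3 in pDC. The moDC libraries were lower in the median and the ranges overlapped (log2 fold change -0.30 ± 0.11, edgeR adjusted p = 0.0211). Ndufa3, an accessory subunit of the membrane arm, had 359.6, 410.2 and 481 scaled CPM in moDC and 302, 362 and 445 in pDC, at a log2 fold change of 0.19 ± 0.079 (edgeR adjusted p = 0.045).

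Complex II is the only complex of the chain with no mitochondrially encoded subunit. Its membrane anchors showed the larger differences, Sdhd with a log2 fold change of 0.71 ± 0.12 and Sdhc with 0.57 ± 0.085. Sdhc had 384, 503 and 559 scaled CPM in moDC and 242, 320.4 and 409 in pDC, higher in moDC in 15 of 16 pairs (edgeR adjusted p = 2.04e-06). The catalytic subunits differed less: Sdhb, with the iron-sulphur clusters, had a log2 fold change of 0.31 ± 0.087, and Sdha, which binds succinate, had 0.23 ± 0.11 and was not called (edgeR adjusted p = 0.0833). In complex III 7 of 8 members were higher in moDC, with a median of 0.39. Uqcr10, a small subunit, had 501, 638 and 779.9 scaled CPM in moDC, against 294, 379 and 521 in pDC, and the ranges overlapped narrowly (log2 fold change 0.73 ± 0.084, edgeR adjusted p = 2.12e-08). Uqcrq, another small subunit, had 236, 314 and 346 scaled CPM in moDC, against 146, 203 and 321 in pDC (log2 fold change 0.51 ± 0.096, edgeR adjusted p = 5.13e-05). The core subunits Uqcrc1 and Uqcrc2 had log2 fold changes of 0.45 ± 0.091 (called) and 0.16 ± 0.1 (edgeR adjusted p = 0.183, not called).

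Complex IV, cytochrome c oxidase, had the highest median of the 5 complexes, 0.63 over 10 tested members, of which 9 were higher and 1 lower in moDC. Cox8a, the housekeeping isoform of the smallest subunit, had 1161, 1461 and 1748 scaled CPM in moDC, against 609, 702 and 871 in pDC. In scaled CPM the moDC libraries all lay above the pDC libraries, at a log2 fold change of 0.99 ± 0.074 and an edgeR adjusted p of 5.84e-12. Cox7b, an accessory subunit, had 539, 703 and 977 scaled CPM in moDC and 349, 403 and 515 in pDC (log2 fold change 0.78 ± 0.086, edgeR adjusted p = 1.13e-08), again without overlap. Cox6a1, the non-muscle isoform next to the excluded Cox6a2, ran from 907 to 1465 scaled CPM in moDC and from 551 to 804 in pDC. Cox4i1, a regulatory subunit that binds ATP, differed least among the called genes of the complex, with 1259, 1602 and 1873 scaled CPM in moDC and 1168, 1365 and 1563 in pDC (log2 fold change 0.21 ± 0.072, edgeR adjusted p = 0.0128).

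Ndufa4 went the other way. It carries a complex I name but is now counted as a subunit of complex IV. It had 41.5, 88.4 and 123 scaled CPM in moDC, against 140.3, 176 and 202 in pDC. Every moDC library lay below every pDC library, and the gene was lower in moDC in 16 of 16 pairs (log2 fold change -1.01 ± 0.12, edgeR adjusted p = 2.08e-08). Leaving out any 1 library kept the value between -1.06 and -0.95. Its paralog Ndufa4l2, induced by hypoxia in other cells, stayed between 0 and 7.02 scaled CPM over all libraries.

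In ATP synthase 9 of 13 tested members were higher in moDC and none was lower, with a median of 0.55. Atp5k, the e subunit at the contact between paired enzymes, had 461, 585 and 762 scaled CPM in moDC, against 208, 291 and 369.9 in pDC, with no overlap (log2 fold change 1.05 ± 0.084, edgeR adjusted p = 2.39e-11). The catalytic β subunit gene Atp5b had 1041, 1320.3 and 1582 scaled CPM in moDC and 632, 814 and 1254 in pDC (log2 fold change 0.57 ± 0.088, edgeR adjusted p = 3.36e-06). Of the central stalk, the ε subunit gene Atp5e ran from 1062 to 1408 scaled CPM in moDC and from 655 to 903 in pDC, and the δ subunit gene Atp5d from 468 to 845 in moDC and from 358 to 472 in pDC (log2 fold change 0.59 ± 0.076, edgeR adjusted p = 1.8e-07). Of the 3 genes for the c subunit of the rotor, Atp5g3 was called higher (0.57 ± 0.094), while Atp5g1 and Atp5g2 stayed under the filter. Not called were Atp5c1 (0.17), Atp5f1 (0.17), Atp5h (-0.03) and Atp5l (-0.13). In all, 7 members had every moDC library above every pDC library (Ndufa13, Cox6a1, Cox6b1, Cox7b, Cox8a, Atp5e and Atp5k) and 1 had every moDC library below (Ndufa4). Such separation was seen in 4.84% and 1.86% of all genes tested, in scaled CPM. Relative to plain library totals, Atp5k and Ndufa4 stayed separate, while Ndufa13, Cox6a1, Cox6b1, Cox7b, Cox8a and Atp5e overlapped. For Cox8a, the moDC library at 6 h of LPS had 393 of 398351 counts. The pDC library at 2 h of LPS had 460 of 450264. Of the 8 members outside the chain, Cox7a2l was higher in moDC (log2 fold change 0.58 ± 0.14, edgeR adjusted p = 0.000994) and Atp5sl lower (-0.77 ± 0.19, edgeR adjusted p = 0.000939).

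**Figure D2:**
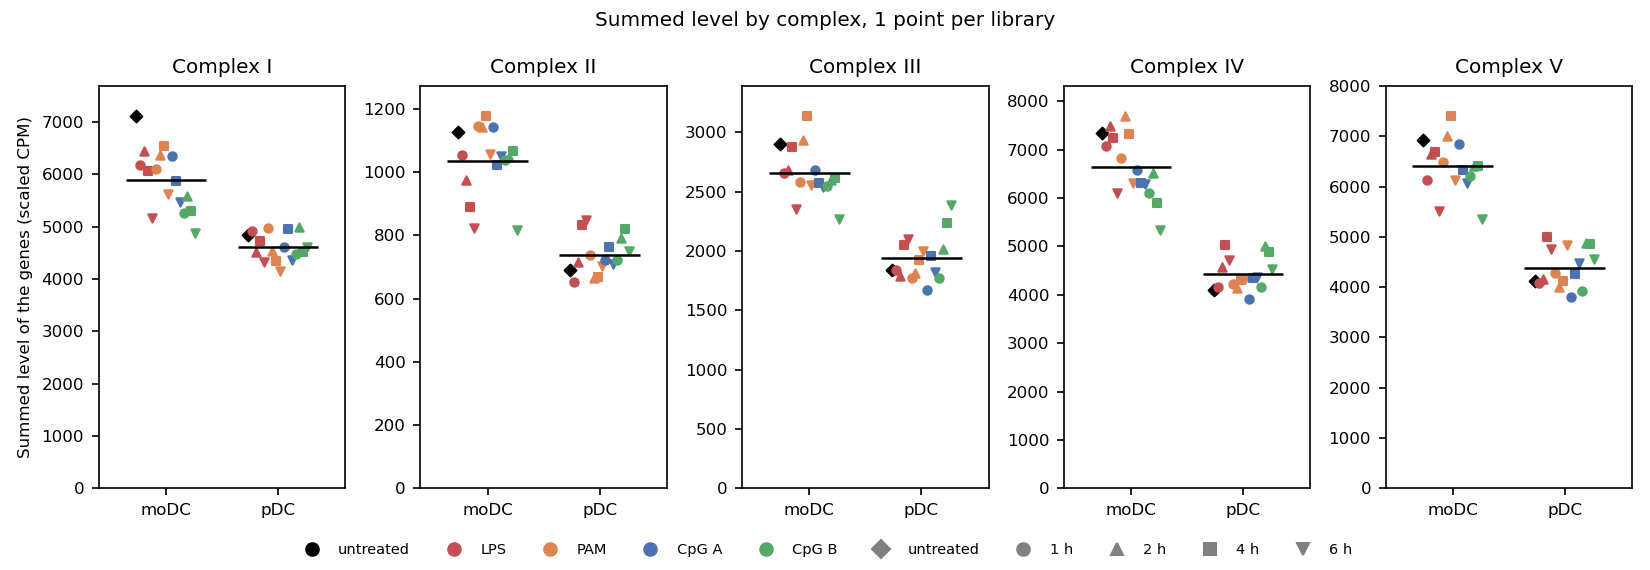
Summed scaled CPM of the members of each complex in every stimulation library, moDC left of pDC, with a bar at the mean of each culture (vertical axis, linear from 0; colour gives the ligand and shape the time). The moDC points lie higher for each complex, with ratios of means of 1.28 for complex I, 1.41 for II, 1.37 for III, 1.5 for IV and 1.46 for V.

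The sums by complex followed the same order in nearly every pair. Complex IV summed to 5348, 6542 and 7702 scaled CPM in moDC, against 3903, 4342 and 5033 in pDC. Complex V summed to 5348, 6417 and 7409 in moDC, against 3814, 4268 and 4991 in pDC. In scaled CPM neither complex overlapped between the cultures, while relative to plain library totals both did. Complex I ran from 4873 to 7119.8 scaled CPM in moDC and from 4159 to 4989.9 in pDC. The moDC library at 6 h of CpG B was the lowest moDC library for each complex. In scaled CPM, complexes II and III were higher in moDC in 15 of 16 pairs, and I, IV and V in 16.

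The number of calls rests on how libraries are scaled. With column totals in place of TMM, 29 members were higher and 8 lower, and Ndufa3 (-0.06) and Cox4i1 (-0.03) changed sign. Column totals moved the median of all genes tested to -0.32, from -0.08 with TMM, so differences are best read against that median. The members' median was 0.51 above it with TMM and 0.50 above it with column totals, and 68 of the 75 members lay above it with TMM. Another scaling moves all genes by nearly the same amount, so these values had to be close and check nothing. Genes under the filter took 1.73% to 2.47% of the counts in moDC and 3.22% to 7.25% in pDC, and 1108 olfactory receptor genes summed to 130.3 to 344 CPM in moDC and 570.4 to 3811 CPM in pDC. The members' share of raw counts was 1.62%, 2.1% and 2.62% in moDC (lowest, median and highest). In pDC it was 1.51%, 1.83% and 2.02%, so by that measure the cultures overlapped. The pair at 6 h of CpG B was reversed, with 1.62% in moDC and 1.79% in pDC.

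Markers of other cells differed between the cultures as well, and their part in the chain genes' difference was not tested. Neutrophil markers summed to 6576 to 15478 scaled CPM in moDC and 1042 to 1631 in pDC (6 of 7 with more in moDC). The eosinophil, basophil and mast cell markers summed to 1639 to 3725 in moDC and 40.3 to 102 in pDC (7 of 7). Monocyte and macrophage markers summed to 15158 to 33312 in moDC and 1261 to 4927 in pDC (7 of 9 with more in moDC). The pDC markers summed to 335 to 2159.7 in moDC and 1806 to 4888 in pDC (0 of 7 with more in moDC). Within the pDC cultures the median sum was 4109 scaled CPM for the monocyte and macrophage list and 2241 for the pDC list. Conventional DC markers summed to 752 to 1555 in moDC and 403 to 919 in pDC, though 1 of the 8 had more in moDC. Klk1 (pDC list) and Ly6c1 (monocyte list) were at 0 in every moDC library, and Hba-a2 (erythroid list) in every library. Progenitor markers summed to 21.3 to 101 in moDC and 84.2 to 568 in pDC, and cell cycle genes to 353 to 711 in moDC and 571 to 1071 in pDC. B cell markers summed to 0 to 9.21 scaled CPM in moDC and 12.3 to 41.6 in pDC, T cell markers to 0 to 7.21 in moDC and 0 to 11.6 in pDC, and erythroid markers to 0 to 8.04 in moDC and 0 to 9.77 in pDC.

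Genes around the chain were compared from lists that do not overlap the members. Of 9 tested partners of the chain, 7 were higher in moDC and 1 lower, with a median log2 fold change of 0.43: Etfb, which brings in electrons from fatty acid oxidation, had 1.14 ± 0.099 (means of 352 scaled CPM in moDC and 159 in pDC), and Cyc1, cytochrome c1 of complex III, had 0.60 ± 0.099. Cycs, cytochrome c itself, was lower in moDC at a low level (-0.75 ± 0.22, means of 9.37 and 16.2 scaled CPM in moDC and pDC). Of 18 tested assembly factors outside the member prefixes, 2 were higher and 6 lower in moDC, beside 27.2% and 31.5% of all genes. Cox17, the copper chaperone of complex IV, had 0.76 ± 0.09, while Ttc19 of complex III assembly had -1.20 ± 0.2 and Acad9 of complex I assembly -1.13 ± 0.25. The tricarboxylic acid cycle and pyruvate dehydrogenase had 8 of 15 tested genes higher and 1 lower in moDC, with malate dehydrogenase Mdh2 at 1.28 ± 0.082 and fumarase Fh1 at -0.66 ± 0.13. Glycolysis differed more than the chain, with 13 of 15 genes higher and 1 lower in moDC and a median of 0.99. The lactate exporter Slc16a3 had 2.86 ± 0.14, the glucose carrier Slc2a1 2.25 ± 0.15 and enolase Eno1 1.86 ± 0.11, and Pfkfb3, which makes an activator of phosphofructokinase, was lower at -1.10 ± 0.19. Of 9 regulators of mitochondrial gene expression 3 were higher and 6 lower in moDC: Ppargc1b had 1.79 ± 0.36, Hif1a 1.30 ± 0.19 and Esrra 0.57 ± 0.12, against -0.97 ± 0.29 for Tfam, -0.48 ± 0.2 for Nrf1 and -0.47 ± 0.19 for Gabpa. With column totals the counts higher and lower were 4 and 1 (partners), 1 and 8 (assembly), 5 and 2 (cycle), 13 and 1 (glycolysis) and 3 and 6 (regulators).

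Exposure to the ligands left most chain genes without a called change. The 4 and 6 h libraries of each ligand were compared with the 1 untreated library of the culture in a fit of all 32 libraries, so the comparisons of a culture share that library. In moDC the called members of the 75 tested numbered 0 after LPS (7.85% of all genes called in either direction), 0 after PAM (0.956%), 0 after CpG A (0%) and 1 lower after CpG B (1.86% lower). In pDC they numbered 3 lower after LPS (5.54% lower), 0 after PAM (4.03% in either direction), 1 lower after CpG A (0.509% lower), and 2 higher (8.4%) and 3 lower (9.45%) after CpG B. In the comparisons with no call, edgeR gave an unadjusted p below 0.05 for 3, 5 and 5 members in moDC and 5 in pDC after PAM, and DESeq2 also called 0. For all genes after CpG A in moDC, where edgeR called 0, 577 had an unadjusted p below 0.05. The members' median standard error was 0.3 to 0.32 on the log2 scale in these comparisons, so modest changes could go uncalled.

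**Figure D3:**
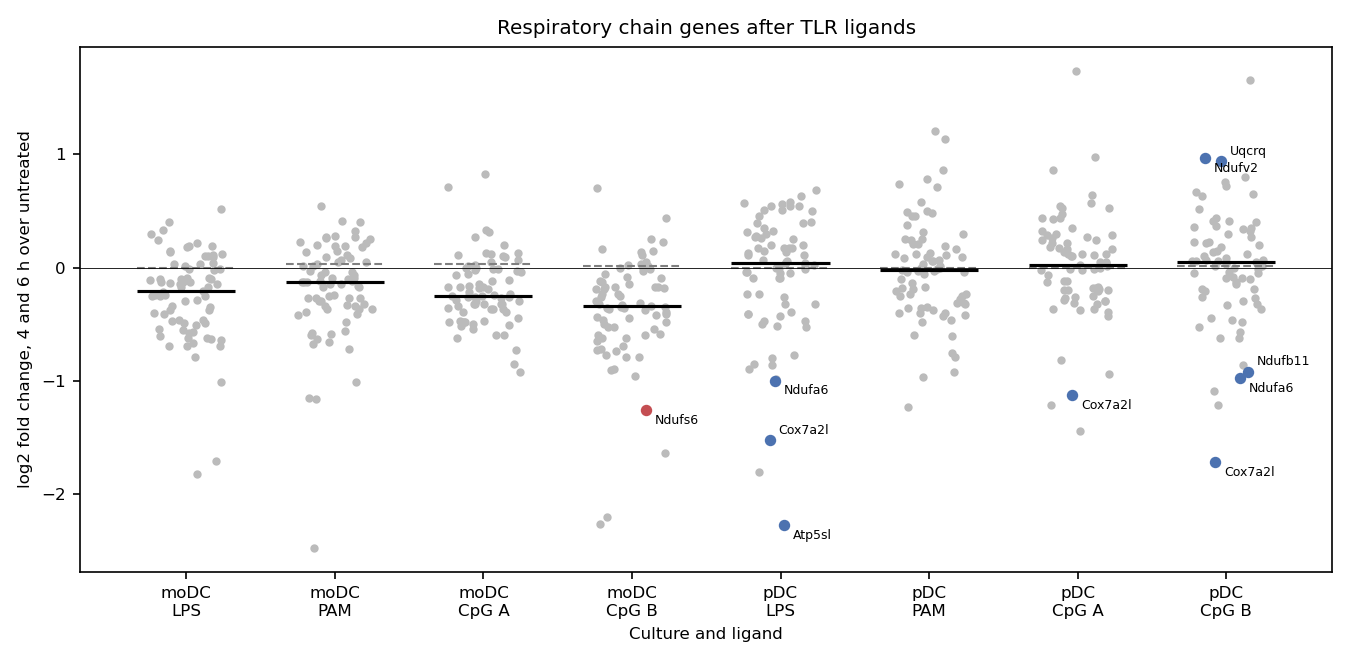
Log2 fold change of the tested members at 4 and 6 h over the untreated library, by ligand and culture, each point 1 member, coloured and named where called, with a solid bar at the members' median and a dashed bar at the median of all genes (vertical axis, log2 scale). The moDC medians lie between -0.34 and -0.13 and the pDC medians between -0.02 and 0.05, and Cox7a2l lies among the lowest pDC points.

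In moDC the medians of the members lay below those of all genes after each ligand, with 1 single gene called. Median log2 fold changes were -0.21 after LPS, -0.13 after PAM, -0.25 after CpG A and -0.34 after CpG B in moDC, and 0.04, -0.02, 0.02 and 0.05 in pDC in the same order of ligands. The medians of all genes lay between -0.00 and 0.03. In moDC 55, 51, 61 and 63 of the 75 members lay below the median of all genes. Set against that median the members' medians were -0.21, -0.16, -0.28 and -0.35 in moDC with TMM and -0.22, -0.16, -0.28 and -0.36 with column totals. As both scalings move all genes nearly alike, these values too had to be close. The common untreated moDC library enters all 4 values, so they are not independent. Without the 6 h library the medians were -0.11 after LPS, -0.07 after PAM, -0.22 after CpG A and -0.21 after CpG B. Leaving out the 4 h library instead gave -0.32, -0.23, -0.27 and -0.38 in the same order. With column totals the median of all genes moved by up to -0.47, and calls rose to 15 lower members after LPS and 11 after CpG B in moDC.

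The one moDC call was Ndufs6, a zinc-binding subunit of complex I. Its mean fell to 82.8 scaled CPM at 4 and 6 h of CpG B, against 208 in the untreated library (log2 fold change -1.26 ± 0.34, edgeR adjusted p = 0.0299). Without the 4 h CpG B library it was no longer called, at -0.95. The most abundant members moved little in moDC: Cox4i1 had log2 fold changes of 0.10, -0.04, -0.25 and -0.25 after LPS, PAM, CpG A and CpG B, and Atp5b 0.09, 0.25, 0.01 and 0.11, none called. Cox8a had -0.24, -0.30, -0.32 and -0.45, none called.

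In pDC Cox7a2l was called lower after LPS, CpG A and CpG B, and Ndufa6 after LPS and CpG B. Cox7a2l encodes SCAF1, a relative of the complex IV subunit COX7A2 that is known to join complexes III and IV into supercomplexes, and C57BL/6 mice are known to carry a shortened form of the protein. In pDC its mean was 61.7 scaled CPM at 4 and 6 h of LPS, 89.8 and 111 in the 2 late PAM libraries, 77.4 as the mean after CpG A and 53.5 after CpG B, against 173 untreated. The log2 fold changes were -1.53 ± 0.31 after LPS (edgeR adjusted p = 0.00227), -1.13 ± 0.31 after CpG A (0.0428) and -1.72 ± 0.31 after CpG B (0.000378). After PAM it was -0.79 ± 0.3 and was not called (edgeR adjusted p = 0.141). The CpG A call was lost without the 6 h library, at -0.90. In moDC the log2 fold changes of Cox7a2l were -0.10, 0.15, -0.32 and -0.12, none called.

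The other pDC calls did not hold in every fit that left out a late library. Ndufa6, an accessory subunit of complex I of the LYR family, had a mean of 204 scaled CPM late after LPS, against 395 untreated (a change of -1 ± 0.29 on the log2 scale, edgeR adjusted p = 0.0241), and -0.98 after CpG B (edgeR adjusted p = 0.0204). The LPS call was lost without the 6 h library, and the CpG B call without either late library. Atp5sl, now named Dmac2 and linked to complex I assembly, had means of 14 scaled CPM late after LPS and 66.9 untreated (-2.28 ± 0.64, edgeR adjusted p = 0.0188), a call lost without the 4 h LPS library and with DESeq2. After CpG B, Ndufb11 of the complex I membrane arm had -0.92 ± 0.31 (102 against 188 untreated, edgeR adjusted p = 0.0395), a call lost without either late library. Ndufv2, which holds an iron-sulphur cluster near the NADH site, was higher at 0.97 ± 0.28 (214 against 107, edgeR adjusted p = 0.0179), as was Uqcrq of complex III at 0.94 ± 0.28 (288 against 146, edgeR adjusted p = 0.0211). Without the 6 h library Uqcrq had 0.78 and was not called, and without the 4 h library Ndufv2 had 0.90 and was not called. With column totals Ndufv2 and Uqcrq had 0.64 and 0.63 and were not called.

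Around the chain, the copper chaperone Cox17 was the gene of the assembly list called in most late comparisons. It averaged 621 scaled CPM late after LPS in moDC, against 266 untreated (log2 fold change 1.31 ± 0.31, edgeR adjusted p = 0.00964), and 441 late after LPS in pDC, against 171 untreated (1.32 ± 0.31, edgeR adjusted p = 0.00612), and was also higher after CpG B in moDC (1.10 ± 0.3) and pDC (1.25 ± 0.31). Ucp2, a carrier of the inner membrane, was lower in pDC after LPS (-0.95 ± 0.29) and CpG B (-1.22 ± 0.29). Fh1 was lower after CpG B in moDC (-1.89 ± 0.56) and after LPS (-1.42 ± 0.45) and CpG B (-1.40 ± 0.44) in pDC. Among enzymes whose products inhibit the chain, Irg1, which makes the complex II inhibitor itaconate, averaged 3285 scaled CPM late after LPS in moDC, against 188 untreated (4.21 ± 0.85, edgeR adjusted p = 0.004), and was called higher after each ligand in pDC, between 4.12 and 6.02. Nos2, which makes nitric oxide, averaged 419 scaled CPM late after LPS and 171 after CpG B in moDC, and had 0 counts in the untreated moDC library.

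A second comparison set the 4 and 6 h libraries against the 1 h libraries of the same ligand, so it does not rest on the untreated libraries. In pDC 3 of the 74 tested members rose and 5 fell (15.6% of all 7781 genes higher, 15.4% lower), and in moDC no member was called (10.3% of all genes in either direction). The moDC comparison gave 4 members an unadjusted p below 0.05 in edgeR and 0 calls in DESeq2. Medians were 0.06 in pDC and -0.07 in moDC, against 0.01 and 0.00 over all genes. Of the 5 members that fell in pDC, 3 (Cox7a2l, Atp5sl and Ndufaf2) are not subunits of the chain, and Ndufa6 and Ndufb11 are accessory subunits of complex I.

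Cox7a2l again fell in pDC. Its 4 and 6 h levels were 55.2 and 68.2 scaled CPM with LPS and 89.8 and 111 with PAM. For CpG A they were 96.3 and 58.6, and for CpG B 50.8 and 56.1. The 1 h levels were 169.6, 174, 145 and 118 scaled CPM with LPS, PAM, CpG A and CpG B, and the 2 h levels with LPS, PAM and CpG B were 142, 124 and 126. All 8 late libraries lay below all 1 and 2 h libraries. The log2 fold change was -1.11 ± 0.17 (means of 73.3 late and 152 at 1 h, edgeR adjusted p = 2.36e-05), and it stayed called, between -1.22 and -0.94, without any 1 library. In moDC the gene ran from 128 to 204 scaled CPM with no separation of late from 1 h libraries (0.02 ± 0.17, means of 159 and 156). The change in moDC minus that in pDC was 1.13 ± 0.24, with an edgeR adjusted p of 0.00857, and Cox7a2l was the 1 member called in that test of the difference (2.31% of all genes called higher). That call was lost without the 1 h LPS library of pDC, at 0.95.

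**Figure D4:**
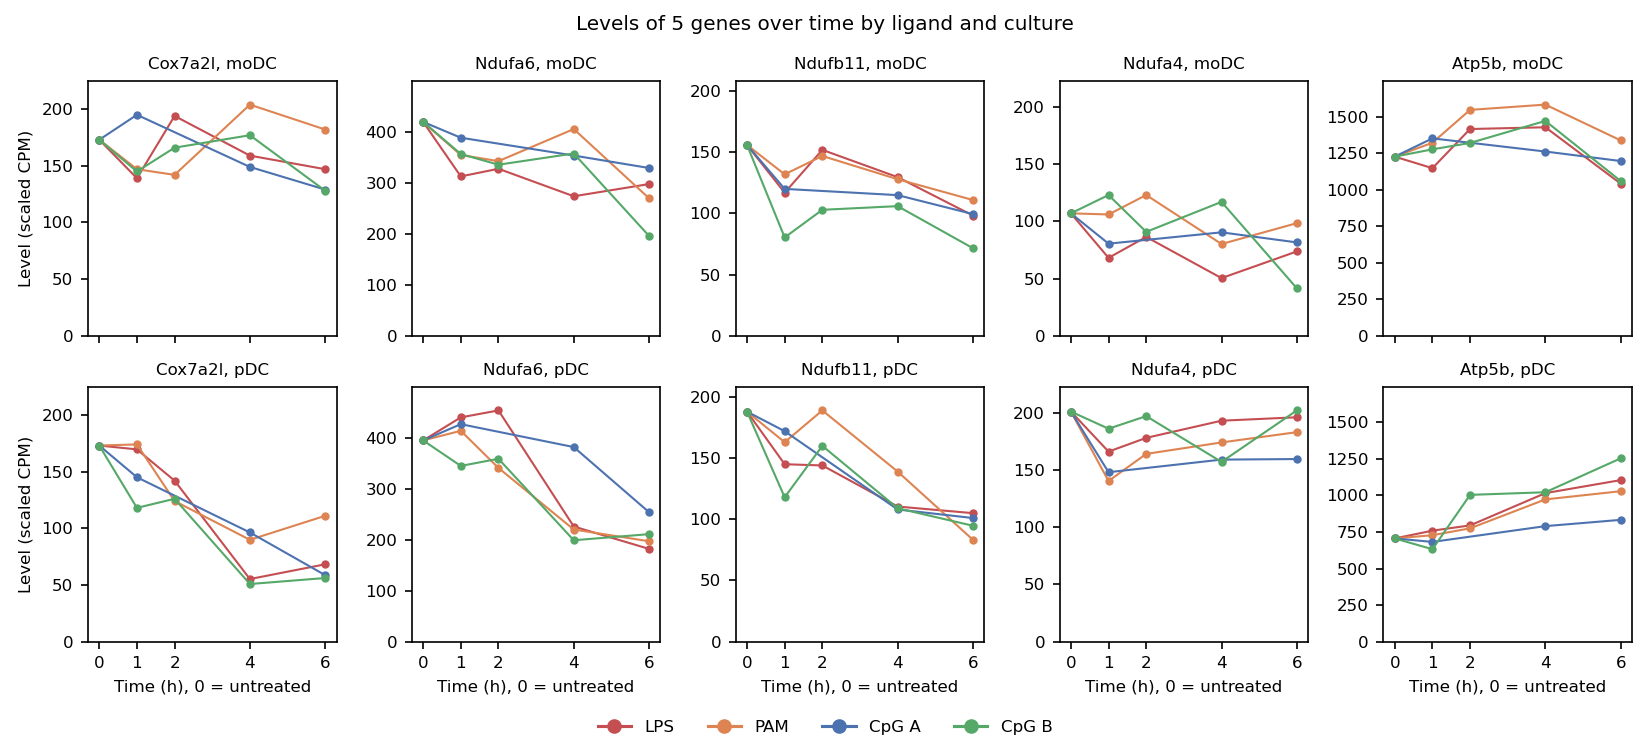
Scaled CPM of Cox7a2l, Ndufa6, Ndufb11, Ndufa4 and Atp5b against hours of exposure, 1 line per ligand, with moDC above pDC and the untreated library at 0 h (vertical axes, linear from 0). In pDC Cox7a2l falls to between 50.8 and 111 at 4 and 6 h, while moDC lines stay between 128 and 204.

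Ndufa6 and Ndufb11 fell in pDC in a like way. Ndufa6 had 182 to 254 scaled CPM in the 6 h and 199 to 382 in the 4 h libraries of pDC, against 345 to 440.3 at 1 h, with the 4 h CpG A library (382) standing with the 1 h libraries (log2 fold change -0.86 ± 0.16, edgeR adjusted p = 0.000165). Ndufb11 averaged 106 scaled CPM late and 149 at 1 h (-0.51 ± 0.16, edgeR adjusted p = 0.0178). The difference between cultures was not called for Ndufa6 (0.69 ± 0.23, edgeR adjusted p = 0.094) or Ndufb11 (0.45, edgeR adjusted p = 0.327). Atp5sl (-1.22 ± 0.28, edgeR adjusted p = 0.00128) and Ndufaf2, a complex I assembly factor (-0.93 ± 0.33, edgeR adjusted p = 0.0362), also fell, at low levels. Those that rose were Atp5b (0.47 ± 0.14, means of 1003 late and 700.3 at 1 h, edgeR adjusted p = 0.0126), the Rieske protein gene Uqcrfs1 (0.40 ± 0.15, edgeR adjusted p = 0.0489) and Ndufb2 (0.53 ± 0.2, edgeR adjusted p = 0.048). Leaving out 1 library at a time, 12 in all, lost the call of Uqcrfs1 10 times, of Ndufb2 8 times, of Ndufaf2 7 times, of Ndufb11 3 times and of Atp5b once, while Cox7a2l, Ndufa6 and Atp5sl were called each time. With column totals none of the 3 that rose was called and 15 members were lower.

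Of the 18 tested assembly factors outside the prefixes, 6 rose and 12 were not called in pDC over the same hours, with a median of 0.49 (15.6% of all genes called higher). Cox17 averaged 337 scaled CPM late and 175 at 1 h (0.87 ± 0.18, edgeR adjusted p = 0.000522), Tmem70 of ATP synthase assembly had 1.32 ± 0.29, and Sco1, a copper protein of complex IV assembly, had 1.72 ± 0.39. With column totals 4 were higher and 2 lower, with a median of 0.27. In moDC none of the 18 was called and the median was -0.09. Of the 9 chain partners 3 fell in pDC: Ucp2 (-0.78 ± 0.16), the ATP synthase inhibitor Atpif1 (-0.44 ± 0.15) and the complex IV assembly factor Higd2a (-0.59 ± 0.2).

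Ligand pairs gave no called member. LPS against PAM called 0 of 75 in moDC (1.82% of all genes called) and 0 in pDC (1.62%), and CpG B against CpG A called 0 in moDC (2.19%) and 0 in pDC (4.84%), by edgeR over 30 treated libraries with time within culture as a block. Unadjusted p fell below 0.05 for 3 members in moDC and 2 in pDC for LPS against PAM, and for 3 in moDC and 5 in pDC for CpG B against CpG A. DESeq2 called 0, 0 and 0 in the first 3 and 1 lower in pDC with CpG B. The member nearest a call was Ndufa6 in pDC, with CpG B over CpG A at -0.61 ± 0.19 (edgeR adjusted p = 0.0561). Medians lay between -0.08 and 0.02.

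In cells sorted without culture, the chain genes were most abundant in the bone marrow progenitors MDP and CDP and least in Ly6c- monocytes. Each population is 1 library of 873734 to 5148680 counts, so there is no test, and intervals are exact Poisson 95% intervals that cover counting error only. The members summed to 26921 CPM in MP (26758 to 27085), 31467 in MDP, 30535 in CDP, 24321 in preDC, 22430.2 in Ly6c+ monocytes, 20247 in DN DC, 20188 in spleen pDC, 19436 in CD8+ DC and 15153 in Ly6c- monocytes (14973 to 15335). With TMM scaling CDP (28431) and MDP (28232) stood above MP (22926), which then came below Ly6c+ monocytes (23700.5) and preDC (23399). For complex IV alone, MP (4676 CPM) was below Ly6c+ monocytes (4952) and preDC (4922) without TMM too. Ly6c- monocytes were the lowest by both scalings (17725 with TMM).

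**Figure D5:**
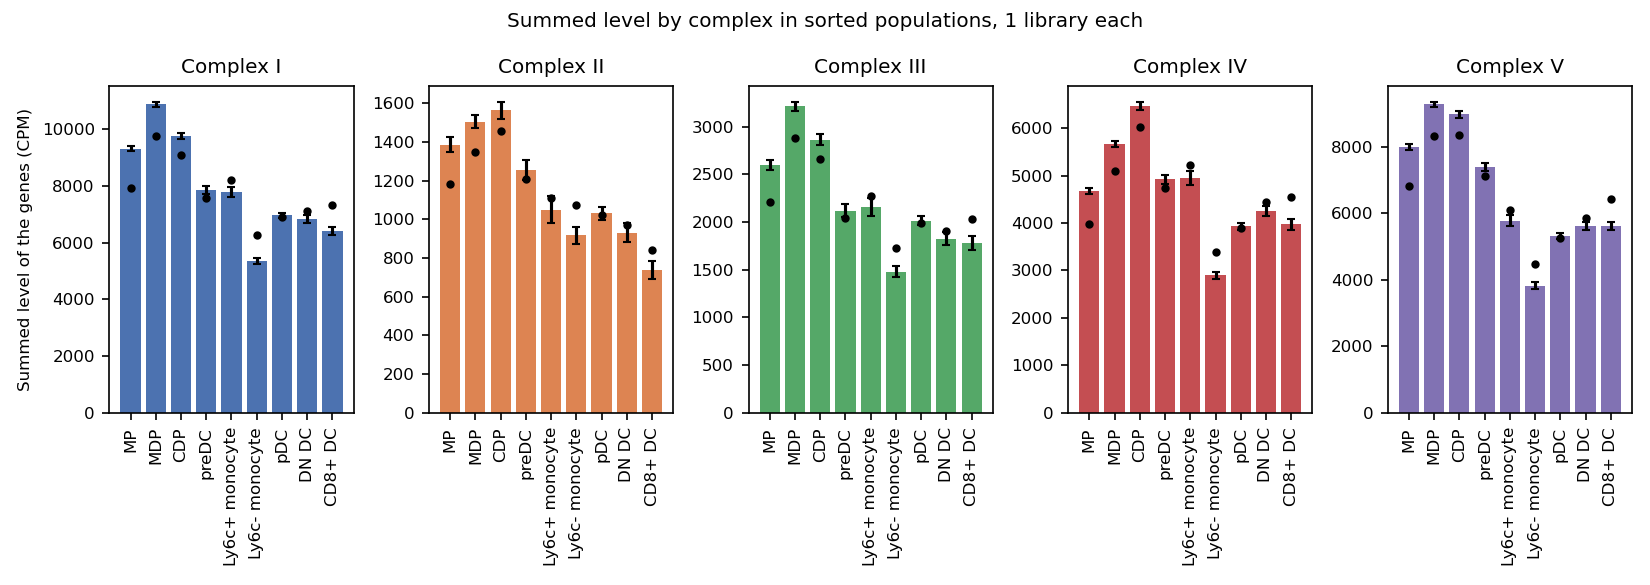
Summed CPM of the members of each complex (1 panel each) in the 9 sorted populations, 1 library each, with exact Poisson intervals (vertical axis, CPM, linear from 0) and black points for the sums under TMM scaling. MDP has the tallest bars for complexes I, III and V, CDP the tallest for complex IV at 6477, and the Ly6c- monocytes have the shortest for complexes I, III, IV and V.

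Of the 72 members that reached 100 CPM in at least 1 population, 34 were highest in MDP and 30 in CDP, and 48 were lowest in Ly6c- monocytes. Of all 4148 such genes, 13.6% were highest in MDP and 13.4% in CDP, and 20.2% were lower in Ly6c- monocytes than in every other population. MP, MDP and CDP all stood above the other 6 populations for 31 of the 72 members, against 19.9% of all genes. Between the monocytes, 65 of 72 members were lower in Ly6c- than in Ly6c+ cells, with a median log2 ratio of -0.60, against -0.08 over all genes. MDP over Ly6c- monocytes gave a median of 1.10 for the members and 0.31 for all genes. Among the DC libraries as labelled, preDC over CDP gave -0.33, with 63 of 72 members lower. Spleen pDC over preDC gave -0.26, with 56 lower (all genes 0.01 and -0.07). CD8+ over DN DC gave -0.06, against -0.14 over all genes.

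The spread differed between members. Cox5a, the subunit of complex IV that binds a thyroid hormone metabolite, had 733 CPM in CDP and 122 in Ly6c- monocytes, and Cox7b had 282 in MDP and 45.9 in Ly6c- monocytes, ratios of 6 and 6.15. Atp5b had 1661 CPM in CDP and 511 in Ly6c- monocytes, and Cox4i1 1785 and 887 in the same cells. Ndufa6 was nearly level, between 377 and 475 CPM. Some members had another order: Ndufa13 was highest in spleen pDC (748 CPM) and Cox7a2l in CD8+ DC (641 CPM) and lowest in preDC (333 CPM). Ndufa4 did not set spleen pDC apart from monocytes, with 49.3 CPM in spleen pDC and 48.1 and 34.7 in Ly6c+ and Ly6c- monocytes. Cox8a had 223 CPM in spleen pDC and 261 and 184 in Ly6c+ and Ly6c- monocytes.

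Cell cycle genes followed a partly similar order, and their part in the differences was not tested. Mki67 had 246 CPM in MP, 378 in MDP, 948 in CDP, 440.5 in preDC and 457 in Ly6c+ monocytes, against 112 in DN DC, 51.6 in CD8+ DC, 19 in Ly6c- monocytes and 16.1 in spleen pDC. Some markers were highest where labels place them: Ly6c2 had 3268 CPM in Ly6c+ monocytes, Xcr1 616 in CD8+ DC and Cd34 794 in MP. Siglech, a pDC marker, had 2655 CPM in spleen pDC. RNA of the sorting markers Flk2 and c-kit did not fully follow the gates. Flt3, which encodes Flk2, had 447 CPM in MP (Flk2 low), 345 in MDP and 349.8 in CDP (both Flk2 high). Kit had 96.5 CPM in MP and 52.1 in MDP (both c-kit high), 19.8 in CDP, 60.5 in DN DC and 56.3 in CD8+ DC. Ly6c2 also had 2172 CPM in spleen pDC and 1821 in preDC. The library labelled preDC also held pDC markers: Siglech had 1234 CPM, Bst2 5378, Ly6d 1184, Tcf4 673 and Ccr9 219. Each of these was second only to spleen pDC.

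Levels of several members differ so much between the stimulation and sorted tables that they were not set side by side as biology. Uqcrb, a small subunit of complex III, had 259 to 488 scaled CPM in stimulation libraries and 0 to 4.69 CPM in sorted ones. The c subunit genes Atp5g1 and Atp5g2 ran the other way, with 0 to 19.9 and 0 to 9.25 scaled CPM in stimulation libraries and 147 to 510.0 and 183 to 459 CPM in sorted ones, as did Cox7c (0 to 19.4 and 67.8 to 192). The tables were made separately, and the reason for these differences was not tested.

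The perturbation libraries were shallow, with 39447 to 262557 counts and 1 library per arm, so ratios carry counting intervals only and no test was made. Cebpb had 58.5 CPM (3 counts) in moDC with the Cebpb hairpin and 559.7 CPM (23 counts) with the control hairpin, and Irf8 had 361 CPM (24 counts) in pDC with the Irf8 hairpin and 811 CPM (32 counts) with the control. Cebpb did not differ between the library labelled Cebpb overexpression (447 CPM, 22 counts) and its GFP control (453 CPM, 119 counts), so that label was not borne out by the gene's own counts. Counts from the 3′ end of the gene may miss a transcript made from a vector and then check nothing.

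The members summed to 18141 CPM in moDC with the Cebpb hairpin and 16328 with the control hairpin, a ratio of 1.11 (95% interval 1 to 1.23). In pDC the sum was 22021 CPM with the Irf8 hairpin and 17973 with the control, a ratio of 1.23 (1.12 to 1.34). The library labelled Cebpb overexpression had 22981 CPM and its control 22886, a ratio of 1 (0.942 to 1.07). The pDC control libraries themselves differed, at 17973 CPM (hairpin) and 22886 CPM (GFP), and the sum with the Irf8 hairpin lay between them. Among members reaching 100 CPM in either library of a pair, a ratio of at least 2 in either direction was seen for 7 higher and 6 lower of 59 with the Cebpb hairpin (16% and 18.9% of all genes), 8 higher and 1 lower of 67 with the Irf8 hairpin (12.9% and 22.5%), and 3 higher and 1 lower of 71 in the library labelled Cebpb overexpression (8.01% and 7.39%). Median log2 ratios with 10 CPM added were 0.02, 0.23 and 0.02, against -0.05, -0.16 and 0.09 over all genes.

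With the Irf8 hairpin 8 of 67 members were at least 2-fold higher, near the 12.9% seen among all genes. Ndufv3 of complex I had the largest ratio, 4.74, from 8 counts with the hairpin and 1 with the control (0.636 to 210.3). Atp5b had 1021 CPM (68 counts) with the Irf8 hairpin and 355 CPM (14 counts) with the control, a ratio of 2.88 (1.6 to 5.54). Atp5k had 616 and 254 CPM with the hairpin and the control (2.43, 1.2 to 5.44), and Atp5g3 841 and 355 CPM (2.37, 1.3 to 4.61). The complex V members summed to 6384 CPM with the Irf8 hairpin and 4386 with the control hairpin, and to 6993 in the GFP control of pDC. Uqcr11 of complex III had 345 and 76.1 CPM (4.54, 1.37 to 23.6), and Uqcr10 of the same complex was lower, with 180.3 and 406 CPM (0.444, 0.192 to 1). With the Cebpb hairpin Sdha had 273 CPM (14 counts) and the control 48.7 CPM (2 counts), a ratio of 5.61 (1.29 to 50.8), and Ndufa5 had 1 count with the hairpin and 8 with the control (0.1, 0.00226 to 0.747). In the library labelled Cebpb overexpression Ndufb3 had 345 CPM and its control 118 (2.92, 1.52 to 5.45). Cox7a2l differed little in each pair, at ratios of 1.37, 0.889 and 0.811 for the Cebpb hairpin, the Irf8 hairpin and the library labelled Cebpb overexpression, and each interval held 1. Ndufa4 had ratios of 0.601, 1.58 and 1.27 in the same order, with intervals that held 1.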

How the data were processed

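RNA was measured as 3′ end mRNA libraries, per the labels' protocols. The authors deposited whole counts per gene for the stimulation libraries, and estimated (expected) counts for the perturbation and sorted libraries, of which 10.2% and 15.8% of values were not whole. The estimated counts deposited by the authors were rounded before use. The submitters' processing notes list TopHat and mm9, and the counting tool is not given in the sources used here. Each column was tied to a sample through its name. The moDC hairpin columns carry cDC in their header and were matched through the titles, 1 column was not used, and the CD4+ DC sample was not analysed here. Rows that name no gene held 0.187% to 0.938% of stimulation counts, 0.00941% to 0.0123% of sorted counts and 0.0122% to 0.017% of perturbation counts, and were left out.

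Genes reaching 20 CPM in 4 or more libraries were tested with edgeR 4.0.16 (R 4.3.3, quasi-likelihood, TMM scaling, Benjamini-Hochberg adjustment over all genes tested, called at an adjusted p below 0.05), after the steps were tested on simulated data. The cultures were compared over 32 libraries with the condition as a block, the late libraries (4 and 6 h) with the untreated library in 1 fit of 32 libraries without a block, the late with the 1 h libraries over 24 libraries with ligand within culture as a block, and ligands over 30 libraries with time within culture as a block. DESeq2 1.42.0, column totals, no filter, no block, a fold minimum of 2 and leaving out each library were alternatives. Sorted and perturbation levels are CPM by column totals. Promoter windows (250 bases before to 50 after the start) came from RefSeq. Genes were named by 1 rule: up to 3 called members per direction and complex with the largest change, the most abundant member of each complex, and the tissue isoforms. A few others, such as members with no overlap between cultures, were named after their values were seen. The members, lists and tests were chosen with earlier results of these data known.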

Additional observations from a re-analysis of the deposited data

Results flagged for a closer look

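Cox7a2l changed over time differently in the cultures. Its log2 change at 4 and 6 h against 1 h, moDC minus pDC, was 1.13 ± 0.24 (SE; edgeR adjusted p = 0.00857 for the difference itself). The gene averaged 159 scaled CPM late and 156 at 1 h in moDC, and 73.3 late and 152 at 1 h in pDC. All 8 late pDC libraries lay below the 4 pDC libraries at 1 h.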

How the results depend on the processing

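Counts of called members moved with the scaling and the fold minimum. For moDC against pDC (52 higher, 3 lower) column totals gave 29 higher and 8 lower, with Ndufa3 at -0.06 and Cox4i1 at -0.03. A fold minimum of 2 gave 1 and 1, and no filter 5 lower. Leaving out 1 library gave 48 to 53 higher and 2 to 4 lower. The 4 and 6 h libraries alone gave 36 higher and 1 lower, and the untreated, 1 and 2 h libraries alone 48 and 4; both splits were chosen after seeing the data. Of the 55 members called, column totals kept the direction and call of 32, lost the call of 21 and turned the sign of 2, DESeq2 kept 54, no filter 54 and no condition block 55. Late against untreated, column totals gave 15 lower after LPS and 11 after CpG B in moDC, and 11 after LPS, 2 after CpG A and 6 lower with 0 higher after CpG B in pDC. DESeq2 and no filter each gave 2 lower after CpG B in moDC and 0 after CpG A in pDC, where leaving out 1 library gave 0 to 1 lower in both. After CpG B in pDC, no filter and the fold minimum each gave 0 higher and 1 lower, and leaving out 1 library 1 higher and 1 lower at the fewest. Late against 1 h, column totals gave 2 lower in moDC, and 0 higher and 15 lower in pDC. In pDC DESeq2 gave 1 higher, no filter 0 higher and the fold minimum 0 higher and 2 lower. Leaving out 1 library gave 0 to 1 lower in moDC (1 without CpG A at 1 h), and in pDC 1 to 3 higher (1 without LPS at 1 h, LPS at 4 h or PAM at 6 h) and 3 to 6 lower (3 without CpG A at 1 h). The difference between cultures had 0 to 2 members (2 without CpG B at 6 h in moDC, 0 without LPS at 1 h in pDC). CpG B against CpG A in pDC gave 1 lower with column totals, with DESeq2 and without CpG A at 1 h. TMM sums in sorted cells were 22926 in MP, 28232 in MDP, 28431 in CDP, 23399 in preDC, 23700.5 in Ly6c+ and 17725 in Ly6c- monocytes, 19983 in pDC, 21142 in DN DC and 22229 in CD8+ DC. Perturbation medians were 0.02, 0.24 and 0.02 with 1 CPM added, and 0.08, 0.39 and -0.06 after scaling to the median gene (Cebpb hairpin, Irf8 hairpin, library labelled Cebpb overexpression). The cause was not tested. The lone untreated library of a culture cannot be left out of its late comparisons. No paired analysis was possible because the labels give no shared replicate numbers, apart from the pairing of libraries by condition. Without that condition block moDC against pDC had 52 higher and 3 lower. A count of 0 allows 4.01 to 11.8 CPM in stimulation, 11.4 to 76.1 in perturbation and 0.583 to 3.43 in sorted libraries.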
